A study of Arabidopsis thaliana with 24 samples.

Results

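Genes raised only early after EXPA1 induction were the genes that stood far above WT after 3 h of Dex in EXPA1 OE shoots, and close to WT both after 7 days of Dex and without Dex. Levels were CPM, the estimated count of a gene scaled to the total of its library. A gene was kept at a mean of at least 2 CPM in EXPA1 OE shoots after 3 h, with a log2 ratio of group means (0.5 added to each mean) of at least 2 over WT after 3 h, under 0.58 in size after 7 days and under 1 in size without Dex. Of 33602 genes, 16530 reached 2 CPM and 135 of these (0.817%) had a ratio of at least 2 after 3 h. After 7 days 101 of the 135 were still at 0.58 or more and 2 were at or beyond the same size on the other side, ACS4 (-1.53) and IAA19 (-0.84). The remaining 32 lost LBD41 on the ratio without Dex (-1.05), which left 31 members at 30 loci. The members were thus chosen by the 3 ratios, which are given as descriptions with no test, as are all differences that they fix.

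The data were RNA-seq of shoots of 7-day-old Arabidopsis thaliana seedlings (ecotype Col-0), in 24 libraries. The EXPA1 OE line 8-4 carries pRPS5A>GR>EXPA1, in which Dex (dexamethasone, a synthetic glucocorticoid) frees an activator expressed under the RPS5A promoter to switch on an added EXPA1. Its seedlings received no Dex, Dex for the last 3 h or Dex throughout their 7 days, and WT seedlings, which lack the construct, received the same, with 4 replicates in each of the 6 groups. Only 1 OE line was sequenced and WT lacked the activator, so effects of EXPA1, of the activator and of the insertion cannot be told apart, and no mock treatment of 3 h is among the groups, so Dex, handling and the hour of harvest cannot be told apart between the 3 h and the no Dex groups. EXPA1, an α-expansin that loosens CWs, stood at 18770 ± 1271 CPM (mean ± SD, n = 4) after 3 h and 13691 ± 1831 after 7 days in EXPA1 OE shoots, against 371 ± 41.9 and 387 ± 90.9 in WT. Without Dex it stood at 428 ± 37.7 in EXPA1 OE shoots and 342 ± 163 in WT. In whole shoots, a change in the share of a cell type and a change in RNA per cell cannot be told apart.

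Totals ran from 33618187 to 82187304 counts per library. Genes of photosynthesis that mark green shoot tissue (8 markers) summed to 50333 to 82719 CPM, and none was at 0 in any library. After 3 h their sum was 50333 to 60922 CPM in EXPA1 OE shoots, against 68231 to 75034 in WT, with no overlap and all 8 ratios below 0 (-0.72 to -0.20). Markers of seed maturation (8 genes) summed to 2.25 to 25.6 CPM in EXPA1 OE shoots after 3 h, against 21.8 to 139.8 in WT. Without Dex their sum was 3.14 to 21.8 CPM in EXPA1 OE shoots, against 136 to 279 in WT. After 7 days it was 6.78 to 80.5 CPM, against 181 to 249. This difference was thus not limited to the 3 h groups. The part of these differences in the members' levels was not tested. The EXPA1 OE library after 3 h with replicate number 2 stood apart, with 15.5% of its counts on 8 ribosomal RNA entries, against at most 5.10% in any other library. It decides 3 of the 31 members, and counts are therefore given below for 31 and for the other 28.

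An expansin is a secreted protein and enters the endoplasmic reticulum (ER) through the Sec61 channel, where it is folded before it moves to the CW. When folding falls behind, the sensors of the ER, among them bZIP28 and IRE1 with its target bZIP60, and membrane-anchored NAC factors released into the nucleus switch on chaperones, translocon subunits and degradation genes, the unfolded protein response (UPR). Mechanical disturbance, wounding and CW stress set off a faster and shorter response through calcium, calmodulin-binding transcription activators, ethylene and jasmonate. Auxin drives CW loosening and induces its own set of early genes. Part of the members belong to these groups.

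The median ratio of the 31 members to WT was 2.34 on the log2 scale after 3 h, 0.15 after 7 days and -0.15 without Dex. For the 101 genes raised early and late it was 2.59, 1.42 and -0.05, and for all 16530 genes 0.05, 0.06 and 0.08. The largest ratio after 3 h among the members was 3.85 (AT2G25460), against 8.28 among the genes raised early and late. All EXPA1 OE libraries were above all WT libraries after 3 h for 28 of the 31 members. Such a gap was found for 19.8% of the 16530 genes, but the rule used this contrast and nothing is read from the count.

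**Figure D1:**
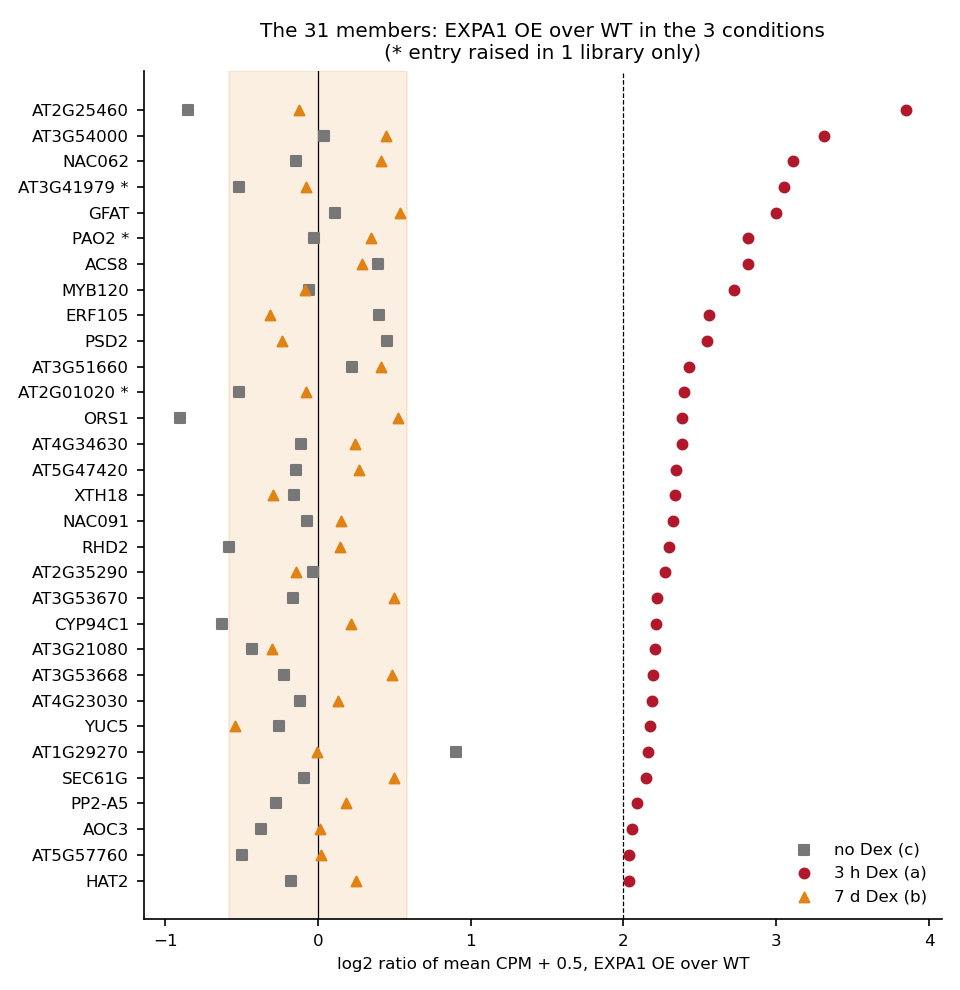
Log2 ratios of the EXPA1 OE line over WT (0.5 added to the mean CPM of 4 libraries) for the 31 members, one row each, without Dex (grey squares), after 3 h (red circles) and after 7 days (orange triangles). The shaded band is the limit of 0.58 set on the 7-day ratio and the dashed line the minimum of 2 set on the 3 h ratio. The circles run from 2.03 for HAT2 to 3.85 for AT2G25460, and the triangles from -0.55 for YUC5 to 0.53 for GFAT.

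The windows around the gene starts, from 250 bases before to 50 after, were searched on both strands for 10 short motifs known from stress, UPR and hormone studies, as a description of what the promoters hold. The rapid stress response element (RSRE, CGCGTT), a site of calmodulin-binding transcription activators, was in 9 of 31 members (29.0%) and in 7 of the 28 (25.0%). It was in 3.96% of the 101 genes raised early and late, in 4.60% of 16446 genes at 2 CPM or more and in 3.82% of all 33322 windows. Of 61 genes just below the minimum, with a 3 h ratio of 1.5 to 2 and the same limits after 7 days and without Dex, 6 (9.84%) held it. The ER stress element (ERSE, CCAAT and CACG with 10 bases between them), bound by bZIP28 with NF-Y, was in 2 of the 28 (7.14%), GFAT and AT5G47420, against 22 of the 101 genes raised early and late (21.8%), 9.84% of the 61 and 1.45% of the 16446. The members therefore held the RSRE more often and the ERSE less often than the genes raised early and late, as shares that were not tested. A match is no evidence of binding. The 250 bases before the start are printed from the TAIR10.1 assembly of RefSeq for 4 members with the RSRE and for GFAT, as examples. No exon of another gene lies in them. The same holds for AT2G35290 and YUC5, which also held the RSRE there and are not printed. Capitals mark the RSRE, as AACGCG on the printed strand (AT2G25460 at chr2:10835484-10835733, minus strand; ACS8 at chr4:17751834-17752083, plus strand; XTH18 at chr4:14827048-14827297, minus strand; SEC61G at chr4:12820737-12820986, minus strand), and in GFAT (chr3:8700972-8701221, minus strand) the ERSE from -195 to -177 with a UPR element (UPRE, TGACGTGG) that overlaps it from -181 to -174.
AT2G25460: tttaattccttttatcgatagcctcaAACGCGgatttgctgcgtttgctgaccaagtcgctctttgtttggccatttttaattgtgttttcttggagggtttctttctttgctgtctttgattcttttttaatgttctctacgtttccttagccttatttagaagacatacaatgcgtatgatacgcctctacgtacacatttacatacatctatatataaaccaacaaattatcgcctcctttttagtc
ACS8: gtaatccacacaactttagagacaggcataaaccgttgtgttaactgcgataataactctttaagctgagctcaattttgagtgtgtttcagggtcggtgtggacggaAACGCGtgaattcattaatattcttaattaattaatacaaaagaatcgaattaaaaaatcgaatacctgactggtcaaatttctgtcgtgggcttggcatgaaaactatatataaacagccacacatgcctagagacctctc
XTH18: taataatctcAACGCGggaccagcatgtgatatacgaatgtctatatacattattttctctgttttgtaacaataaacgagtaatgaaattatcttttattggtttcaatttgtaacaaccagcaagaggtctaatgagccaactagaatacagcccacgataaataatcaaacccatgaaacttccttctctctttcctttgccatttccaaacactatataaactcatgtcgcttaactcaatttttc
SEC61G: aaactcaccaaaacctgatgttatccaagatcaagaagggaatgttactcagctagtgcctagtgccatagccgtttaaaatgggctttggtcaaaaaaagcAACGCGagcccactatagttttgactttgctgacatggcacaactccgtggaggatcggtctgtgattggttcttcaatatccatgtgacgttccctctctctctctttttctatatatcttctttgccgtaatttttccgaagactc
GFAT: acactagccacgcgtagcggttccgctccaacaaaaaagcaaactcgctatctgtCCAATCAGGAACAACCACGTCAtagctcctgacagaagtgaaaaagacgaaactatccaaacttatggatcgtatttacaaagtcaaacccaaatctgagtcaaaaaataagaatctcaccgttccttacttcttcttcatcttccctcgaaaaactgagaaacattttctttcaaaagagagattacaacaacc

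Counted from the gene start, the first base of the RSRE was at -224 in AT2G25460, -142 in ACS8, -240 in XTH18, -148 in SEC61G, -92 in AT2G35290, -250 in YUC5 and 14 in AT3G21080. The remaining matches were in both 5.8S ribosomal RNA entries. The auxin response element (AuxRE, TGTCTC) was in 8 of the 28 (28.6%), against 10.9% of the 101 genes, 23.0% of the 61 and 15.7% of the 16446, among them ORS1, ACS8 and AT5G57760 but neither YUC5 nor HAT2. The W-box (TTGACC), bound by WRKY factors, was in 25.0% of the 28, 20.8% of the 101 genes raised early and late and 14.1% of the 16446. The G-box (CACGTG) was in 21.4%, 21.8% and 9.67% of the same sets, so for both the members were close to the genes raised early and late. AT3G53670 and AT3G53668 are 2 entries of 1 locus and both count in the AuxRE, W-box and G-box shares. The ERF site GCC-box (GCCGCC) was in none of the 28. The other motifs searched were the pUPRE-III (TCATCG, 10.7% of the 28 and 9.93% of the 16446), the ERSE-II (ATTGG and CCACG around 1 base, none of the 28) and the mitochondrial dysfunction motif MDM (CTTG and CAAG around 5 bases, AT5G57760 alone). None of the 10 motifs was found for 8 members, PAO2, MYB120, ERF105, AT3G51660, AT4G34630, NAC091, RHD2 and HAT2.

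**Figure D2:**
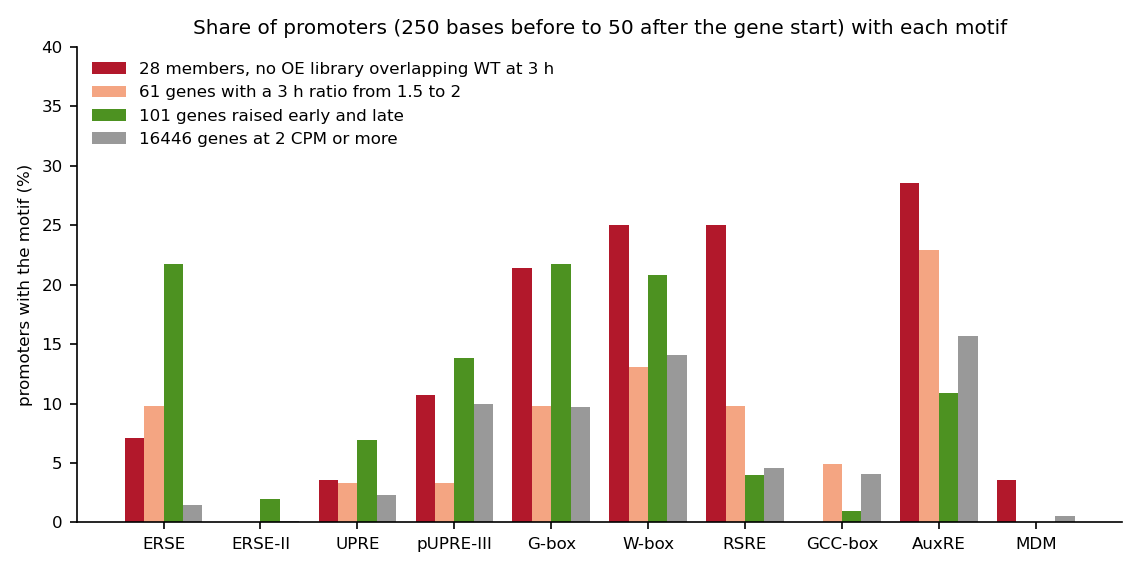
Share of windows (250 bases before to 50 after the gene start, both strands, y axis in percent) that hold each of 10 motifs, for the 28 members whose EXPA1 OE libraries all lie above WT after 3 h (red), the 61 genes just below the minimum (orange), the 101 genes raised early and late (green) and 16446 genes at 2 CPM or more (grey). The RSRE bar of the 28 members reaches 25.0% where that of the genes raised early and late reaches 3.96%, and the ERSE bars stand the other way round, at 7.14% and 21.8%.

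SEC61G (AT4G24920, chr4:12819511-12820736), 1 of the genes for the γ subunit of the Sec61 channel, had the highest level per length of the 28 after 3 h, 378 CPM per kb of exon. It stood at 182, 208, 196 and 185 CPM in EXPA1 OE shoots after 3 h, against 42.4, 42.1, 43.8 and 44.4 in WT. After 7 days it stood at 45.5, 44.1, 50.7 and 55.3 CPM in EXPA1 OE shoots, against 36.8, 35.4, 33.2 and 32.4 in WT. Every EXPA1 OE library was above every WT library at both times, so SEC61G was among the 4 members with no overlap after 7 days, with AT3G53670, AT3G53668 and AT3G51660. Over the 16530 genes such a gap after 7 days was found for 15.9%, and one in the other direction, which no member showed, for 8.66%. The second γ subunit gene, AT5G50460, had a ratio of 2.06 after 3 h and 0.75 after 7 days and was no member. A further γ subunit gene, AT3G48570, at 12.5 CPM in EXPA1 OE shoots after 3 h, had only 0.65 and 0.18.

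GFAT (AT3G24090, chr3:8697838-8700971) encodes glutamine-fructose-6-phosphate transaminase, which makes the precursor of UDP-N-acetylglucosamine, the sugar donor that starts N-glycans. It stood at 35.0, 31.6, 37.7 and 31.9 CPM in EXPA1 OE shoots after 3 h, against 4.29, 3.96, 3.10 and 3.95 in WT. After 7 days it stood at 5.03, 5.95, 9.49 and 10.0 CPM in EXPA1 OE shoots, against 4.16, 4.79, 6.23 and 5.26 in WT. The groups were well apart after 3 h and overlapped after 7 days, with a ratio of 0.53 close to the limit. AT5G47420 (chr5:19232836-19235059), placed in the ER by its annotation and the other member with an ERSE, stood at 54.7 to 61.2 CPM in EXPA1 OE shoots after 3 h, against 10.4 to 11.7 in WT. Its levels were 8.98 to 15.6 CPM after 7 days in EXPA1 OE shoots, against 9.79 to 10.2 in WT.

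Few other ER genes behaved in this way. Of 100 genes on 8 ER lists (UPR regulators, chaperones, calnexin cycle, disulfide formation, degradation, translocon, vesicle coats and other ER stress markers), 97 reached 2 CPM and 39 had a ratio of at least 2 after 3 h. After 7 days 37 of the 39 were still at 0.58 or more, and the other 2 were the members NAC062 and SEC61G. BIP3, an ER chaperone, had ratios of 8.28 and 4.73 and BZIP60 of 3.42 and 2.05, after 3 h and 7 days in each pair. The genes for the other Sec61 subunits differed among themselves. Of the α subunit genes AT1G29310 had 3.57 and 1.97, while AT2G34250, at 594 CPM in EXPA1 OE shoots after 3 h, had 1.37 and 0.31. Of the β subunit genes AT3G60540 had 4.76 and 2.80, AT2G45070 1.47 and 0.46, and AT5G60460 0.13 and 0.45. AT2G34250, AT2G45070 and AT5G60460 lay within the 7-day limit but missed the 3 h minimum.

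NAC062 (AT3G49530, chr3:18362443-18364913) encodes a transcription factor held in a membrane and released to the nucleus under cold and ER stress. It stood at 162, 137, 158 and 139 CPM in EXPA1 OE shoots after 3 h, against 14.2, 18.3, 21.2 and 13.7 in WT. The levels after 7 days were 20.8, 24.4, 36.5 and 46.9 CPM in EXPA1 OE shoots, against 15.8, 36.7, 21.6 and 21.9 in WT. The high level was thus limited to the 4 libraries of the EXPA1 OE line after 3 h, and the no Dex libraries (16.8 to 33.4 in EXPA1 OE shoots and 19.0 to 41.5 in WT) lay in the range of the 7-day ones.

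NAC091 (AT5G24590, chr5:8416662-8418933), a NAC factor first known as the partner of a viral coat protein, followed the same course at a lower level. It stood at 89.5, 72.2, 83.04 and 74.0 CPM in EXPA1 OE shoots after 3 h, against 12.7, 15.7, 18.9 and 14.6 in WT. At 7 days its levels were 19.2, 23.8, 30.1 and 34.4 CPM in EXPA1 OE shoots, against 16.4, 40.6, 20.3 and 19.3 in WT. The 7-day groups overlapped, and the highest of the 8 libraries was a WT one. Of 12 genes for membrane-anchored NAC factors, 9 reached 2 CPM and 4 had a 3 h ratio of at least 2. The other 2 of these, NAC089 (2.40 and 0.80) and NAC068 (2.37 and 1.44), were above the limit after 7 days.

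ACS8 (AT4G37770, chr4:17752084-17754157) encodes 1 of the ACC synthases, which make the precursor of ethylene. It stood at 6.21, 4.97, 7.99 and 5.90 CPM in EXPA1 OE shoots after 3 h, against 0.307, 0.380, 0.662 and 0.499 in WT. Its 7-day levels were 1.93, 0.880, 1.45 and 1.08 CPM in EXPA1 OE shoots, against 1.70, 1.57, 0.385 and 0.338 in WT. The 7-day groups overlapped, and the WT libraries fell into a high and a low pair. Of 9 ACC synthase genes 5 reached 2 CPM and 2 had a 3 h ratio of at least 2, neither of them with 0.58 or more after 7 days. The other was ACS4, at 2.33 after 3 h and -1.53 after 7 days. ACS11 missed the 3 h minimum at 1.94 and stood at 0.62 after 7 days.

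YUC5 (AT5G43890, chr5:17648857-17650131), a flavin monooxygenase of auxin synthesis, had the lowest 7-day ratio of the members (-0.55). It stood at 10.2, 9.58, 14.8 and 13.9 CPM in EXPA1 OE shoots after 3 h, against 1.73, 2.42, 2.22 and 2.80 in WT. The levels after 7 days were 2.14, 0.774, 2.25 and 3.78 CPM in EXPA1 OE shoots, against 2.12, 4.06, 4.12 and 3.68 in WT. It was high in EXPA1 OE shoots after 3 h only, and 1 of its 7-day libraries was lowest of all. Its place within the 7-day limit depended on the processing. The 7-day ratio was -0.61 on exon counts, -0.59 with TMM library sizes and -0.70 by the median of 4, all beyond the limit. HAT2 (AT5G47370, chr5:19216312-19217909), a homeodomain factor induced early by auxin, stood at 48.3, 46.4, 65.8 and 63.2 CPM in EXPA1 OE shoots after 3 h, against 11.8, 11.8, 12.7 and 16.9 in WT. Without Dex it stood at 29.3, 30.5, 26.6 and 29.97 CPM in EXPA1 OE shoots, against 20.2, 26.3, 42.1 and 43.0 in WT. For HAT2 the WT libraries after 3 h were the lowest of the 24. Of 13 genes of early auxin response and auxin synthesis, 9 reached 2 CPM and 3 had a 3 h ratio of at least 2, YUC5, HAT2 and IAA19, none of them with a 7-day ratio of 0.58 or more.

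Jasmonate genes were represented by AOC3 (AT3G25780, chr3:9409290-9410567), an allene oxide cyclase of jasmonate synthesis, and CYP94C1 (AT2G27690, chr2:11809306-11811215), a cytochrome P450 that oxidises the active hormone jasmonoyl-isoleucine. AOC3 stood at 4.29, 6.01, 10.6 and 8.20 CPM in EXPA1 OE shoots after 3 h, against 1.26, 1.49, 1.41 and 1.32 in WT. CYP94C1 stood at 6.65, 8.19, 15.9 and 16.4 CPM in EXPA1 OE shoots after 3 h, against 1.65, 2.04, 2.07 and 2.88 in WT. In both, the EXPA1 OE libraries varied more than the WT ones, with a low pair and a high pair, and none of them overlapped WT. Other jasmonate genes were not raised as much. AOC2, next to AOC3, had a 3 h ratio of -0.86, and JAZ1 one of 1.07. ERF105 (AT5G51190, chr5:20800584-20801416), an ethylene response factor, stood at 30.7, 23.5, 51.1 and 39.4 CPM in EXPA1 OE shoots after 3 h, against 7.59, 6.89, 5.02 and 3.44 in WT. Its levels without Dex were 23.5, 21.6, 27.2 and 16.5 CPM in EXPA1 OE shoots, against 7.88, 12.2, 22.4 and 24.4 in WT. The EXPA1 OE libraries of ERF105 after 3 h and without Dex overlapped, and the WT libraries after 3 h were the lowest. Of 13 genes of the rapid touch and wound response, 4 had a 3 h ratio of at least 2. ERF105 and AOC3 were members, and XTH23 (1.42 after 7 days) and WRKY18 (0.58) were not.

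ORS1 (AT2G41230, chr2:17194926-17195674), a gene of the ARGOS family that promotes organ growth, differed most between 3 h and no Dex. It stood at 20.9, 46.4, 79.8 and 67.5 CPM in EXPA1 OE shoots after 3 h, against 9.06, 10.96, 7.97 and 11.6 in WT. Without Dex it stood at 0.557, 0.613, 0.287 and 0.352 CPM in EXPA1 OE shoots, against 1.28, 1.19, 1.85 and 0.803 in WT. The EXPA1 OE line was below WT in every library without Dex and above it in every library after 3 h. XTH18 (AT4G30280, chr4:14825808-14827047), a xyloglucan endotransglucosylase/hydrolase that cuts and rejoins CW xyloglucan, stood at 46.0, 67.3, 120.1 and 99.6 CPM in EXPA1 OE shoots after 3 h, against 12.9, 14.8, 19.7 and 16.9 in WT. At 7 days its levels were 4.37, 2.88, 10.6 and 13.6 CPM in EXPA1 OE shoots, against 6.93, 14.4, 8.41 and 9.37 in WT. XTH18 was the only XTH gene among the members, and its neighbour XTH19 missed the 3 h minimum at 1.75, with -0.05 after 7 days.

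RHD2 (AT5G51060, chr5:20757284-20762431), the NADPH oxidase RBOHC of growing root hairs, was found in these shoot libraries at 5.56, 5.53, 16.5 and 12.5 CPM in EXPA1 OE shoots after 3 h, against 1.45, 1.303, 1.97 and 1.84 in WT. Its 7-day levels were 1.40, 2.16, 3.16 and 4.48 CPM in EXPA1 OE shoots, against 1.51, 2.74, 2.85 and 2.85 in WT. The summed level of 8 root hair markers, RHD2 among them, was 15.5 to 29.7 CPM in EXPA1 OE shoots after 3 h, against 5.02 to 12.7 in WT. None of the 8 was at 0 in any library, and the other 7 had 3 h ratios of 0.46 to 0.97, below that of RHD2 (2.30). After 7 days the sum was 5.95 to 27.0 CPM in EXPA1 OE shoots and 12.5 to 23.4 in WT, and without Dex 2.26 to 6.21 and 8.42 to 14.9. The sum of 8 markers of other root tissue after 3 h was 279 to 382 CPM in EXPA1 OE shoots, against 750 to 833 in WT. It was set mostly by its most abundant gene, PYK10 (ratio -1.43). Of the others, IRT1 (0.55), CASP1 (0.42), PLT1 (0.19) and NRT2.1 (0.13) were above 0, and SHR (-0.18), SCR (-0.30) and GL2 (-0.40) were below. None of the 8 was at 0 in any library. The part of root cells in the RHD2 level was not tested.

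PSD2 (AT5G57190, chr5:23171531-23175364), a phosphatidylserine decarboxylase that makes the membrane lipid phosphatidylethanolamine, stood at 7.75, 5.005, 6.16 and 6.71 CPM in EXPA1 OE shoots after 3 h, against 0.335, 0.706, 0.833 and 0.844 in WT. Without Dex it stood at 2.57, 3.56, 3.47 and 2.95 CPM in EXPA1 OE shoots, against 1.76, 2.76, 1.75 and 2.38 in WT. After 3 h, every EXPA1 OE library was above, and every WT library below, all libraries of its own genotype without Dex. AT3G51660 (chr3:19164063-19165247), annotated as a relative of the animal cytokine MIF, stood at 28.01, 29.7, 48.1 and 37.0 CPM in EXPA1 OE shoots after 3 h, against 6.19, 6.02, 6.71 and 5.97 in WT. Without Dex it stood at 3.02, 3.01, 3.53 and 3.44 CPM in EXPA1 OE shoots, against 2.83, 2.99, 2.56 and 2.49 in WT. It was higher in every EXPA1 OE library than in every WT library under all 3 conditions (without Dex only AT1G29270 also was, against 19.6% of all genes, while 4 members, ORS1, AT5G47420, AT3G21080 and AT5G57760, were lower in every one, against 5.77%), by ratios of 0.22, 2.43 and 0.41 without Dex, after 3 h and after 7 days.

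MYB120 (AT5G55020, chr5:22324599-22326248), an R2R3 MYB factor known from pollen tubes, came closest to an on and off pattern. It stood at 1.64, 2.07, 5.29 and 2.98 CPM in EXPA1 OE shoots after 3 h (665 counts), against 5 counts in the 4 WT libraries. The EXPA1 OE line without Dex had 0 counts in all 4 libraries, so the level after 3 h was at least 205-fold higher against a floor of 3 counts over the group (0.0146 CPM). Over WT after 3 h the ratio of the means was 103, while the ratio with 0.5 added was 2.72 on the log2 scale, which understates it. After 7 days the EXPA1 OE line was at 0 in 3 libraries and at 0.0250 CPM in the other, and WT at 0 to 0.0751 CPM.

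AT2G25460 (chr2:10832754-10835483), annotated with a C2 domain, had the largest ratio. It stood at 18.22, 22.8, 27.2 and 18.6 CPM in EXPA1 OE shoots after 3 h, against 0.920, 1.03, 0.897 and 1.32 in WT. Without Dex it stood at 1.58, 1.75, 1.90 and 1.12 CPM in EXPA1 OE shoots, against 0.826, 0.889, 3.796 and 7.58 in WT, where replicates 1 and 2 were low and 3 and 4 high. AT3G54000 (chr3:19996607-19998623), whose function is not known to the annotation, stood at 29.4 to 38.2 CPM in EXPA1 OE shoots after 3 h, against 2.23 to 3.45 in WT. AT4G34630 (chr4:16536865-16537746) stood at 109 to 126 CPM in EXPA1 OE shoots after 3 h, against 20.3 to 22.8 in WT, and from 18.24 to 41.1 CPM in the 16 other libraries. The highest library of any other group was at 7.58 CPM for AT2G25460, 9.86 for AT3G54000 and 41.1 for AT4G34630. The rest, AT2G35290, AT3G21080 (annotated as related to ABC transporters), AT4G23030 (a MATE efflux protein), AT1G29270, PP2-A5 (AT1G65390, a lectin of the phloem protein 2 family) and AT5G57760, had 3 h ratios of 2.04 to 2.27 and 7-day ratios of -0.30 to 0.19.

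**Figure D3:**
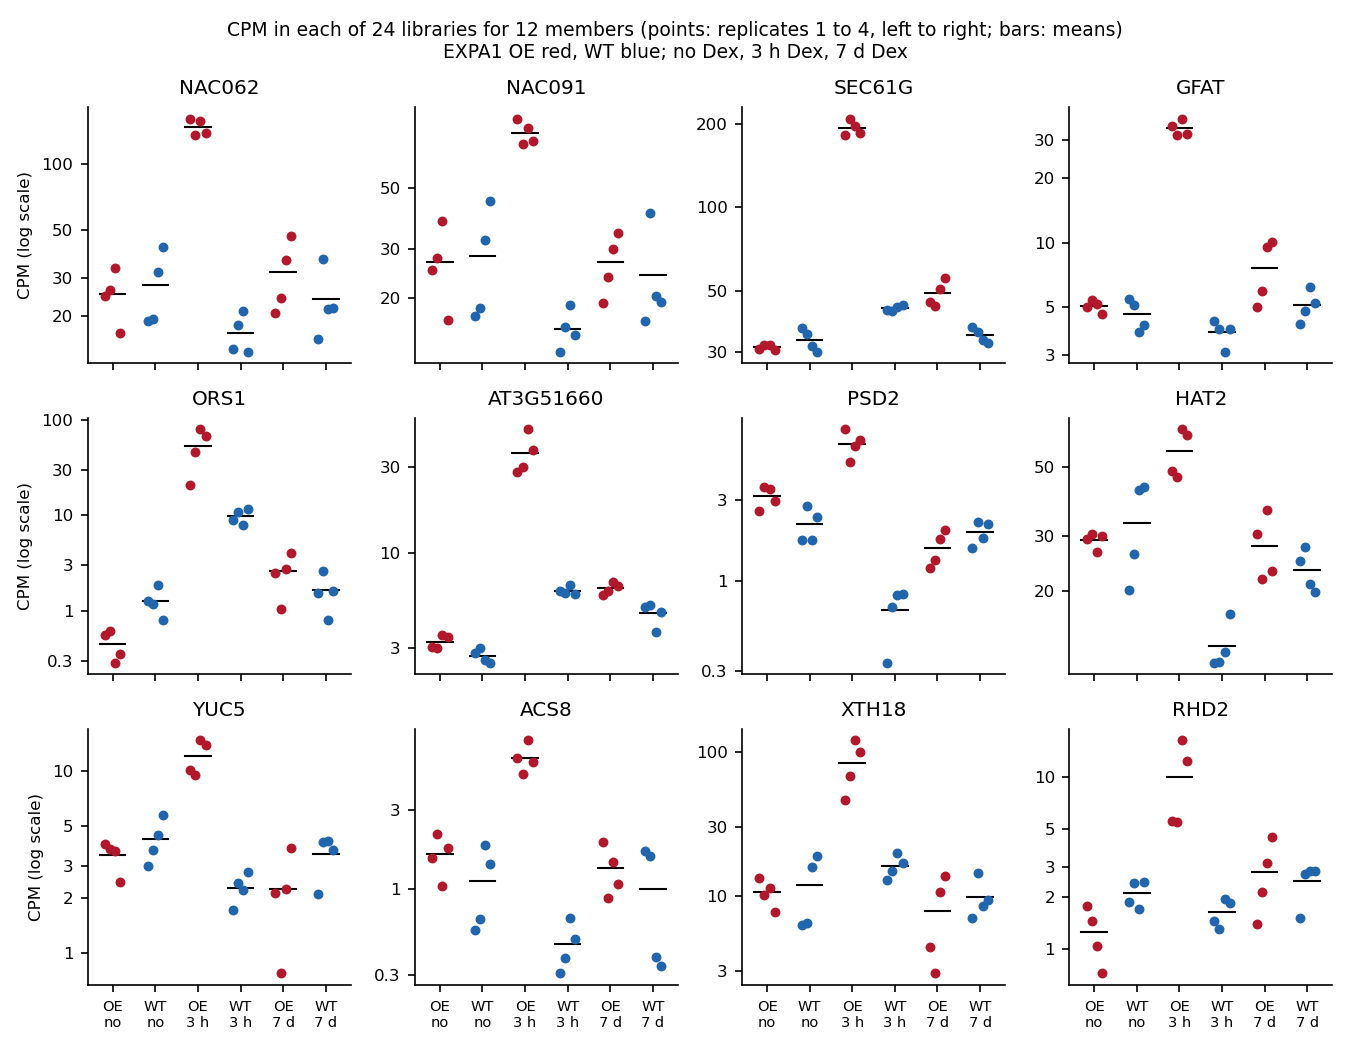
CPM (log axis) of 12 members in each of the 24 libraries, with replicates 1 to 4 from left to right as points and the group mean as a bar, EXPA1 OE in red and WT in blue, without Dex, after 3 h and after 7 days. In each panel the 4 EXPA1 OE libraries after 3 h lie above all WT libraries after 3 h. PSD2, HAT2, YUC5 and ACS8 have their lowest group in WT after 3 h or in the 7-day EXPA1 OE line, and ORS1 and AT3G51660 stand higher after 3 h than without Dex in both genotypes.

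The 3 members decided by 1 library were 5.8S ribosomal RNA AT3G41979 (chr3:14199753-14199916) and AT2G01020 (chr2:5782-5945) and PAO2 (AT2G43020, chr2:17891503-17894635), a polyamine oxidase. AT3G41979 stood at 12.4, 481, 17.8 and 13.7 CPM and AT2G01020 at 12.4, 559, 17.8 and 13.7 in EXPA1 OE shoots after 3 h, so only replicate 2 was high. The 2 entries are 164 bases long and had 0 differences in sequence, so their reads cannot be assigned to 1 of them. PAO2 stood at 0.0182, 13.4, 0.0339 and 0.00943 CPM in EXPA1 OE shoots after 3 h. It was also above 8 CPM in 2 of the 4 EXPA1 OE libraries and 2 of the 4 WT libraries after 7 days. AT2G43018 covers 3130 bases of PAO2 on the same strand, and the sum of both entries was 15.1 ± 1.35 CPM in EXPA1 OE shoots and 16.3 ± 1.60 in WT (SD, n = 4 each), a log2 ratio of -0.11. Without that library the 3 h ratio was -0.92 for AT2G01020, -0.08 for AT3G41979 and -0.08 for PAO2, so all 3 fell short of the rule, and the 28 others kept it. AT3G53670 (chr3:19890364-19892443) and AT3G53668 are likewise overlapping entries, but here both were high in every EXPA1 OE library after 3 h, and their sum was 72.1 ± 5.37 CPM in EXPA1 OE shoots against 14.8 ± 1.83 in WT, with a 3 h ratio of 2.24 and a 7-day ratio of 0.50. These values rest on the estimated counts. The exon counts held 14 for AT3G53670 and 0 for AT3G53668 over all 24 libraries, so both missed the rule there.

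**Figure D4:**
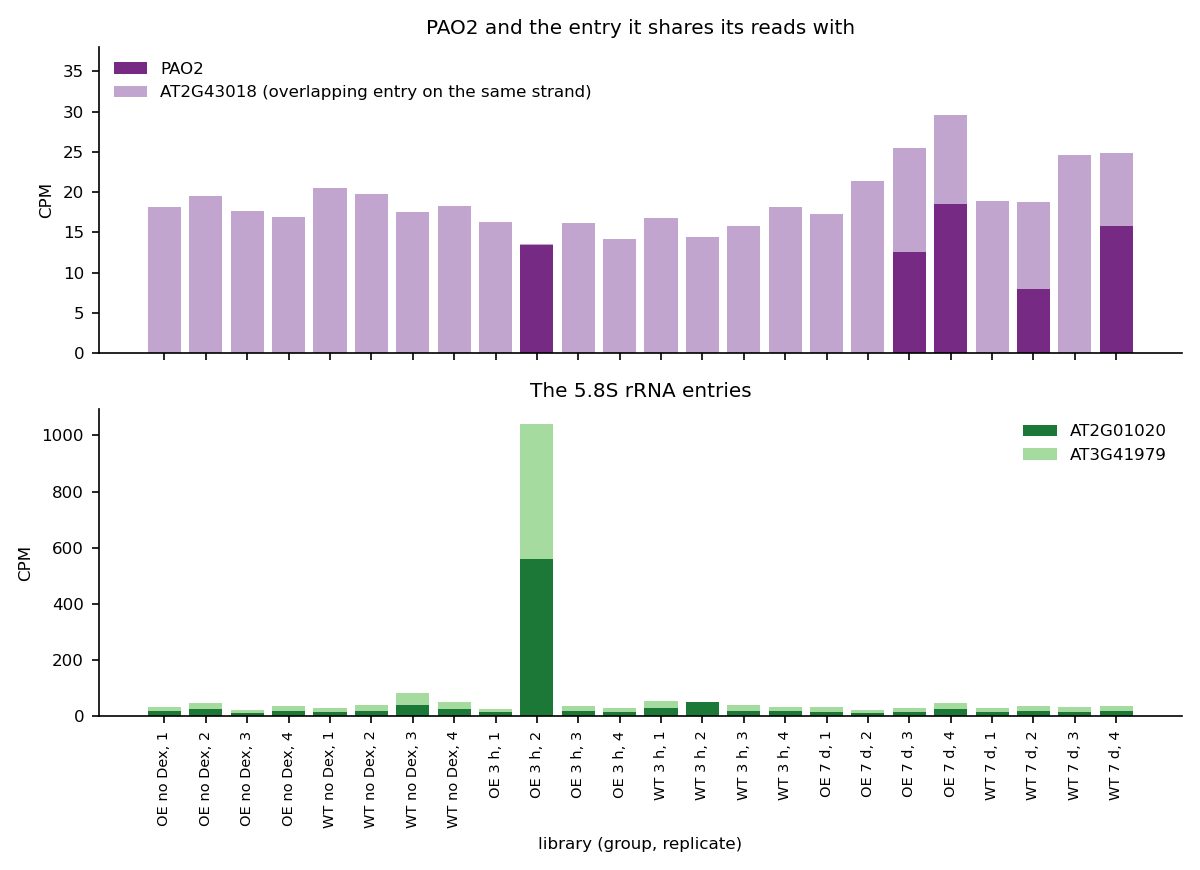
CPM in each of the 24 libraries for PAO2 and the overlapping AT2G43018 (top, stacked bars) and for the 5.8S ribosomal RNA entries (bottom, stacked bars). In the top panel the EXPA1 OE library after 3 h with replicate number 2 gives its reads to PAO2 (13.4 CPM) with a bar as a whole no higher than its neighbours, and in the bottom panel the same library holds 481 and 559 CPM where the others hold at most 51.1 in any entry.

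The change within the EXPA1 OE line and the change within WT each shaped the 3 h ratio. In EXPA1 OE shoots, 3 h over no Dex, all 31 ratios were above 0, from 0.69 for ERF105 to 5.83 for ORS1, with a median of 2.59. The ratio was at least 1 for 28 of the 31, all but ERF105, PSD2 (0.92) and HAT2 (0.93), against 7.63% of the 16530 genes, and all libraries were above those without Dex for 27, against 30.5%. Over the same line after 7 days, the ratio was at least 1 for 29 members, against 5.14%, and the libraries did not overlap for 27, against 20.5%. A high level in EXPA1 OE shoots after 3 h favours membership, so nothing is read from these counts. In WT the same ratio ran from -1.47 for ERF105 to 2.54 for ORS1, with 18 members below 0 and 13 above. The difference of the 2 changes is fixed by the rule. The WT libraries are the denominators of the ratios after 3 h and without Dex, and a low WT level after 3 h favours membership, so the WT change is not independent of the rule either. Calls of lower WT levels are therefore descriptions, printed with no p-value. The rule used the WT levels after 3 h, so these calls are no separate support, and nothing is read from how many members were lower.

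Of the 31 members 29 passed the filter on low counts in WT (PAO2 and MYB120 did not), and 9 were called between 3 h Dex and no Dex, where 8.94% of all genes were called. A call needed an adjusted p under 0.05 by edgeR's quasi-likelihood test on 4 against 4 libraries (Benjamini-Hochberg over 20571 genes) and a log2 fold change at or beyond 1 in size. Higher in WT after 3 h were 3 members, where 3.57% of all genes were called higher. ORS1 rose by 2.90 on the log2 scale (SE 0.24, adjusted p = 4.94e-05, edgeR), AT5G57760 by 1.37 (SE 0.12, adjusted p = 6.64e-05) and AT3G51660 by 1.15 (SE 0.09, adjusted p = 4.38e-05). In EXPA1 OE shoots their 3 h over no Dex ratios were 5.83, 3.88 and 3.27. That these shoots stood above WT after 3 h is set by the rule, and nothing is read from it. Leaving out 1 library at a time gave 6 to 13 members called, with the most without WT no Dex replicate 1. Lower in WT after 3 h were 6 members, a direction the rule favours, where 5.38% of all genes were called lower.

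The log2 fold change in WT of those 6 was -1.70 for PSD2 (SE 0.27), -1.37 for HAT2 (SE 0.26), -1.61 for ERF105 (SE 0.41), -1.12 for AT2G35290 (SE 0.31), -1.004 for AT3G54000 (SE 0.33) and -1.33 for ACS8 (SE 0.45). AT3G54000 and ACS8 missed a threshold without any 1 of the 4 WT 3 h libraries and without WT no Dex replicate 3 or 4, with log2 fold changes of -1.09 to -0.68 and of -1.59 to -0.98. AT2G35290 missed one without WT 3 h replicate 1 (-1.11) or 4 (-1.07) or WT no Dex replicate 4 (-0.76). ACS8 was also lost on exon counts (-1.31) and AT3G54000 with column sums as library sizes (-0.94). The values of YUC5 (-0.94), NAC091 (-0.93) and NAC062 (-0.79) were of lesser size, and SEC61G was higher by 0.33 (adjusted p = 0.00238, edgeR), under the minimum of size. The median over the 29 members was -0.14, against 0.02 over all genes tested. For PSD2, HAT2 and ERF105 the ratio of 3 h over no Dex was smaller in size in EXPA1 OE shoots (0.92, 0.93 and 0.69) than in WT (-1.17, -1.28 and -1.47). The WT estimates were near 0 for AT4G34630 (-0.06) and AT5G47420 (0.08), and that of GFAT was -0.32.

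**Figure D5:**
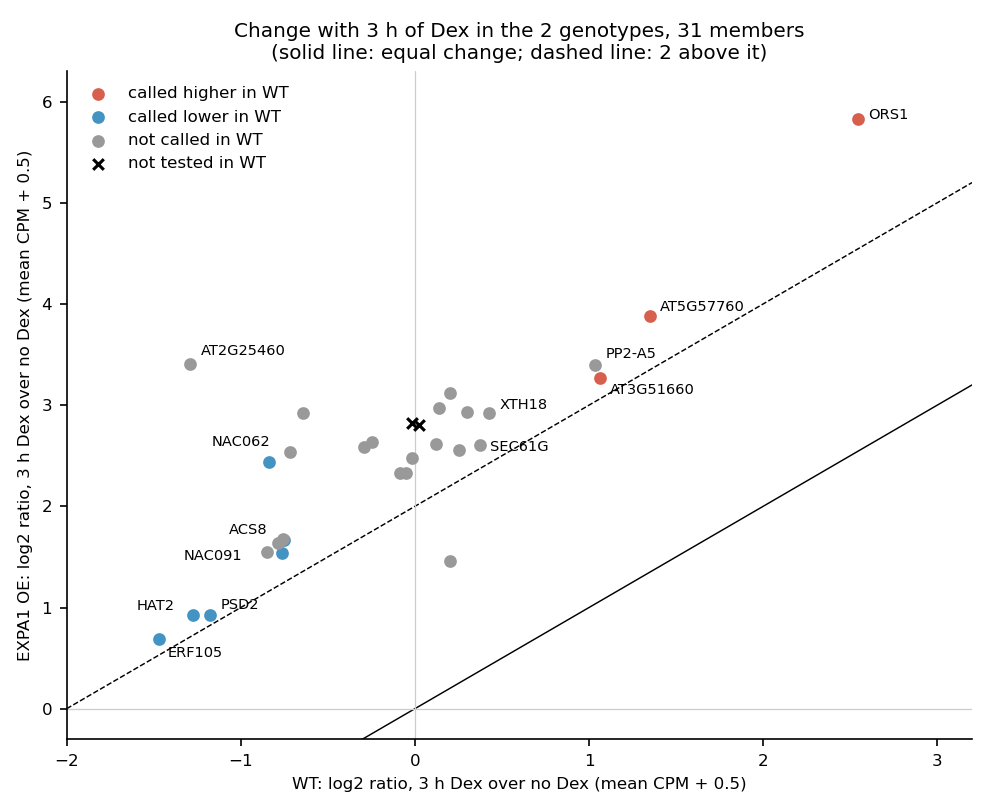
Log2 ratio of 3 h Dex over no Dex in EXPA1 OE shoots (y axis) against the same ratio in WT (x axis), from group means with 0.5 added, for the 31 members. Red and blue points were called higher and lower in WT by edgeR's quasi-likelihood test, grey points were not called and crosses were not tested. The distance above the solid line of equal change is set by the rule, and what the plot adds is the spread along it, from ERF105 (0.69 in EXPA1 OE shoots, -1.47 in WT) to ORS1 (5.83 and 2.54).

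After 7 days of Dex, none of 29 members tested was called in WT against no Dex, where 1 of 20768 genes was called (0.00482%), and 1 member was under an unadjusted p of 0.05 by edgeR's quasi-likelihood test (7.26% of all genes were), AT3G51660, which differed by 0.71 on the log2 scale (adjusted p = 0.248). DESeq2 called 1 member, PAO2, whose reads move between entries. In EXPA1 OE shoots 2 of 28 members tested were called between 7 days of Dex and no Dex, against 6.24% of all genes. ORS1 was higher by 2.47 on the log2 scale (SE 0.42, adjusted p = 0.00299, edgeR), where 4.80% of 20104 genes were called higher, and PSD2 lower at -1.04 (SE 0.18, adjusted p = 0.00378, edgeR), where 1.44% were called lower. The call of PSD2 was lost on size without EXPA1 OE 7-day replicate 1 (-0.94) or 2 (-0.95) or EXPA1 OE no Dex replicate 2 (-0.98) or 3 (-0.996), which left 1 member called without each of the last 3. AT3G51660 (0.92, adjusted p = 0.000315, edgeR), SEC61G (0.60, adjusted p = 0.000407), AT3G53670 (0.67, adjusted p = 0.0022), AT3G53668 (0.59, adjusted p = 0.00678) and AT1G29270 (-0.87, adjusted p = 0.0364) passed on p but not on size. PAO2, MYB120 and AT3G21080 were not tested. The rule limits the ratios to WT after 7 days and without Dex, so the test is not independent of how the members were chosen. Without Dex the ratio to WT was -0.90 for ORS1 and 0.45 for PSD2.

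The 7-day levels in EXPA1 OE shoots were not alike between libraries. For 22 of the 31 members both of replicates 1 and 2 were below both of replicates 3 and 4, against 39.4% of the 16530 genes. The reverse order was seen for 1 member and for 29.9% of the genes. NAC062 (20.8 and 24.4 against 36.5 and 46.9 CPM) and AT2G25460 (0.952 and 0.934 against 1.82 and 2.23 CPM) were among the 22. The 7-day ratios of the rule are taken from means over these unlike libraries. After 3 h the same parting was seen in EXPA1 OE shoots for 16 of 31, against 39.4% of all genes. It was not particular to this line. In WT without Dex 16 members parted in this way (25.1% of all genes) and 6 in reverse (48.3%). In WT after 7 days 4 did (32.7%) and 9 in reverse (39.2%).

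The members next to the limits show how much the set depends on them. Just inside the 3 h minimum were HAT2 (2.03), AT5G57760 (2.04), AOC3 (2.06), PP2-A5 (2.09) and SEC61G (2.15), and just outside TRM13 (1.97), AT3G51990 (1.94), CAF1a (1.92), AT1G68500 (1.92) and AT5G59240 (1.87). Just inside the 7-day limit were YUC5 (-0.55), GFAT (0.53), ORS1 (0.52), SEC61G (0.50) and AT3G53670 (0.50), and just outside WRKY18 (0.58), AT3G05230 (0.59), AT1G27350 (0.62), AT1G70990 (0.63) and AT5G61610 (0.64). Just inside the limit without Dex were AT1G29270 (0.91), ORS1 (-0.90), AT2G25460 (-0.85), CYP94C1 (-0.63) and RHD2 (-0.58). Nearest the level of 2 CPM were MYB120 (3.00), PAO2 (3.37), AT3G21080 (4.12), ACS8 (6.27) and PSD2 (6.404), as mean CPM in EXPA1 OE shoots after 3 h. AT3G05230 and AT1G27350, genes of signal peptide processing and of the translocon, thus differ little from SEC61G in their ratios.

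In the genome the members were scattered. HAT2 and AT5G47420 lay 14926 bases apart on chromosome 5 with 3 genes between them, and AT3G53670 and AT3G53668 overlap. ORS1 overlaps AT2G41231 by 383 bases and AT5G57760 overlaps AT5G57770 by 404 bases on the opposite strand, and whether counting used the strand is not given in the sources used here. AT2G41231 stood at 0.415 CPM and AT5G57770 at 1.14 CPM in EXPA1 OE shoots after 3 h, far below ORS1 (53.6) and AT5G57760 (63.9). Of the 28 members, 8 had no intron in the annotation (28.6%), against 10.9% of the genes raised early and late and 12.7% of the genes at 2 CPM or more, shares that were not tested. The median exon length was 1284 bases for the 31 members and 1619 for the genes at 2 CPM or more.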

How the data were processed

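RNA-seq of 24 shoot libraries was used. The authors used Trimmomatic for trimming and STAR for alignment to the TAIR10 build, and deposited estimated counts per gene from RSEM, used for all main results, and exon counts from featureCounts, used as an alternative. The library kit and read length are described differently by the paper and the labels, and whether molecular identifiers or strand were used in counting is not given in the sources used here. Ratios were taken from CPM on the deposited column sums. For tests the estimated counts, of which 3.82% were not whole, were rounded, filtered with filterByExpr, scaled by TMM and fitted with edgeR 4.0.16 (quasi-likelihood, R 4.3.3), on the 2 groups compared. Python 3.11.15, NumPy 2.4.6, pandas 2.3.3 and matplotlib 3.10.9 were used for the rest, and the scripts were tested on simulated data. The number of members that passed the filter was 29, 29 and 28 of 31 in the 3 comparisons. The paper calls the 4 libraries of a group biological replicates, without saying how they were grown apart, and p-values measure the spread between them. The 3 tested comparisons share their groups with the ratios that chose the members.

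Members and gene lists were chosen with earlier results of these data known. The genes named were the members with the 10 largest 3 h ratios, members on a list, called in a test or overlapping another member, and the 5 genes on each side of each limit. Other members were named after their values were seen. Gene positions and exon borders were those given with the authors' exon counts, and sequences came from the RefSeq genome (TAIR10.1). In that genome 98.8% of 83245 introns between these borders began with GT and ended with AG. The RefSeq annotation had an entry for 30 of 31 members. Alternatives were the exon counts, DESeq2 1.42.0, other scaling, filters, pseudocounts and limits, a fit of all libraries, the replicate number as a block and leaving out each library.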

Additional observations from a re-analysis of the deposited data

Results flagged for a closer look

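In 185 groups of 4 libraries of the members, 9 (4.86%) had 1 library far from the other 3, with a gap to them above the 95% critical value of Dixon's test, where chance gives about 1 in 20. In EXPA1 OE shoots after 3 h, replicate 2 was far above the others for AT3G41979 (481 CPM, others 12.4 to 17.8), AT2G01020 (559 CPM, others 12.4 to 17.8) and PAO2 (13.4 CPM, others 0.00943 to 0.0339). In WT after 7 days, replicate 2 was high for AT3G54000 (8.39 CPM, others 3.40 to 4.21), NAC091 (40.6 CPM, others 16.4 to 20.3) and AOC3 (4.11 CPM, others 1.71 to 1.83), and replicate 1 was low for RHD2 (1.51 CPM, others 2.74 to 2.85). In EXPA1 OE shoots after 7 days, replicate 1 was high for PP2-A5 (10.4 CPM, others 8.19 to 8.53) and replicate 4 for MYB120 (0.0250 CPM, others 0).

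For 4 members every library after 3 h of Dex lay above all libraries without Dex in EXPA1 OE shoots and below all of them in WT. Of the 16530 genes at 2 CPM or more, 30.5% lay above in EXPA1 OE shoots and 12.5% lay below in WT. The share with both was not counted. The rule favours this pattern, so nothing is read from the number. The log2 ratio of 3 h over no Dex was 0.92 in EXPA1 OE shoots and -1.17 in WT for PSD2, 1.54 and -0.76 for AT2G35290, 1.68 and -0.75 for YUC5, and 0.93 and -1.28 for HAT2. The difference between the genotypes was not tested, since the rule fixes it.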

How the results depend on the processing

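Under 37 alternatives to the rule 4 members were kept in all, ERF105, AT4G34630, AT5G47420 and NAC091. The number of members was 17 with 2 CPM added in place of 0.5, 94 with a 3 h minimum of 1.5 and 59 with a 7-day limit of 1, and 28 to 37 when 1 library was left out. In place of 9 members, WT after 3 h against no Dex gave 6 to 13 when 1 library was left out. It gave 8 on exon counts, where ACS8 was lost on adjusted p, and 8 with column sums, where AT3G54000 was lost on size (-0.94). With the replicate number as a block it gave 7, losing AT3G54000 on size and ERF105 on adjusted p. The block left the counts in the other comparisons at 0 and 2. The numbers do not pair the libraries (correlations of deviations from -0.43 to 0.08). WT after 7 days gave 1 member by DESeq2 in place of 0. EXPA1 OE shoots after 7 days against no Dex gave, in place of 2 members, 4 by DESeq2, 4 with all 24 libraries in 1 fit, 1 with column sums as library sizes, 7 with no fold threshold and 1 to 3 when 1 library was left out. Apart from the fold threshold, whose removal admits smaller changes, the cause was not tested. No change called by edgeR turned its direction. The 3 h ratios of 3 members did turn: without EXPA1 OE 3 h replicate 2, by the median of 4 and on exon counts they were -0.92, -0.51 and -0.03 for AT2G01020 and -0.08, -0.14 and -0.03 for AT3G41979, and PAO2 was at -0.08 without that library, at -0.06 by the median and at -0.11 summed with AT2G43018 (the sum was added after seeing the data). Members at few CPM, such as MYB120 and AT3G21080, are limited by depth in the groups where they are low.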
